A study of Mus musculus with 15 samples.

Results

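The nuclear genes for subunits of respiratory complexes II, III and IV and of ATP synthase (complex V) were followed in mouse medial prefrontal cortex with and without a heterozygous deletion. The members were taken as a list of 39 gene names, 4 of complex II, 9 of complex III, 11 of complex IV and 15 of ATP synthase, and their rows were found by Ensembl gene ID among 54736 genes. All 39 were found, each in 1 row except Atp5o, whose 2 IDs of the same symbol were summed, and all 39 were among the 18656 genes whose mean reached 1 TPM (a transcript's length-scaled share of its library) and which were tested. The rule itself uses no measured value. RNA came from punches of prefrontal tissue from C57BL/6 males, 8 to 10 weeks old, and was sequenced on a BGISEQ-500 instrument. Df(h15q13)/+ mice, which carry 1 copy of the mouse segment corresponding to human 15q13.3, were compared with wild-type littermates, untreated as far as the labels say. The sample titles give 7 WT and 8 KO libraries, where KO stands for the heterozygous animals, whereas the design text gives 7 deletion mice and 8 wild types, and the titles were followed. All 5 tested genes of the deleted segment (Chrna7, Otud7a, Klf13, Mtmr10 and Fan1) had every KO library below every WT library, with log2 fold changes of -1.13 to -0.83. The labels tie no library to a named animal, so p-values measure the spread between libraries.

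Electrons from succinate enter the respiratory chain at complex II, the enzyme succinate dehydrogenase, which is also a step of the citric acid cycle. Complex III passes electrons from ubiquinol to cytochrome c, complex IV (cytochrome c oxidase) passes them to oxygen, and ATP synthase uses the resulting proton gradient to make ATP, on which ion pumping and synaptic transmission in the cortex depend. Complex II is built from nuclear genes alone, while complexes III, IV and ATP synthase each join nuclear subunits with others encoded in mitochondrial DNA. Transcription of many of the nuclear genes is known to involve the factors NRF1, GABP and YY1.

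Sequence bears on how these genes can be measured. For 14 of the 39 members the annotation (GENCODE M21, mm10 build) holds other genes whose transcripts match at 95% identity or more over at least 150 bases, 34 copies in all, 32 of them annotated as pseudogenes. The first 90 coding bases of 4 such members are shown because reads from them are hard to assign. In the Uqcrb pair, capitals mark the bases that differ, 4 in this stretch and 7 over the 336 compared, which leaves 97.9% identity. The other 3 stretches are shared letter for letter by a member and its copy, and the identity held over all 192, 441 and 309 compared bases of Cox7c, Atp5g2 and Atp5l.
Uqcrb (chromosome 13): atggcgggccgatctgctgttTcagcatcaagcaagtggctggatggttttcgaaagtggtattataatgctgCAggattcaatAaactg
Gm16089 (chromosome 5), a pseudogene copy of Uqcrb: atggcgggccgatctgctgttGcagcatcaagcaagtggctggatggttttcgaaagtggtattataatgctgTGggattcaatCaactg
Cox7c (chromosome 13) and its copy Gm12338 (chromosome 11): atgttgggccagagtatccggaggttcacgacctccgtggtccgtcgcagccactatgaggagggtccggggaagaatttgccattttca
Atp5g2 (chromosome 15) and its copy Gm10175 (chromosome 7): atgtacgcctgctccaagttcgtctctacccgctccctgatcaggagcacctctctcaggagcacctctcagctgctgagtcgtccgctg
Atp5l (chromosome 9) and its copy Gm10221 (chromosome 5): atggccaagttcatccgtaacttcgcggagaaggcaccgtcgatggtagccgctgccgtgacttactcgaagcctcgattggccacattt

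Promoter windows were available from RefSeq for 31 of the 39 members, and the 250 bases before the RefSeq start, which can differ from the GENCODE start, were searched on both strands. The NRF1 core GCATGCGC was found in 5 of 31 members (16.1%) and in 2.56% of 27025 genes with a window. The ETS and GABP core CCGGAAG was found in 9 members (29.0%) and in 7.83% of all genes. The YY1 core GCCATCTT was found in 1 member, Atp5j (3.23%), and in 1.83% of all genes. A match of letters is a description and says nothing of binding. The 5 with the NRF1 core were Sdhb, Cox6a1, Atp5g2, Atp5k and Atp5l. The 9 with the ETS and GABP core were Sdhd, Uqcrh, Uqcr11, Cox6a1, Cox6b1, Atp5e, Atp5h, Atp5j and Atp5l. Windows are shown for Sdhd, which holds the ETS and GABP core, and for Atp5l, which holds that core and the NRF1 core (GRCm38.p6, 5′ to 3′ on the gene's strand). The matched letters are in capitals, and the ETS and GABP core lies on the opposite strand in both. Neither window reaches into the gene as GENCODE places it.
Sdhd (chr9:50603850-50604099, minus strand): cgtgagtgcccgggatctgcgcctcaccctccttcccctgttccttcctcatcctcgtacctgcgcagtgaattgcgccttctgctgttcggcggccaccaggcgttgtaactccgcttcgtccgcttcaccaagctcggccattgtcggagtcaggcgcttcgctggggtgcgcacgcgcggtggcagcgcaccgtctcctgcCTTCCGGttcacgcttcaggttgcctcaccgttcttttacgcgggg
Atp5l (chr9:44920743-44920992, minus strand): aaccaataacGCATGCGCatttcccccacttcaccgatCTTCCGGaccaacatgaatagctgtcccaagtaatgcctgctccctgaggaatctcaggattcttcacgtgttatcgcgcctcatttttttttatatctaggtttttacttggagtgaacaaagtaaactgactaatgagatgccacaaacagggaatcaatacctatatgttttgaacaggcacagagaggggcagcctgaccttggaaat

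The members ranged 26.4-fold in mean listed level, without copies, from Sdhc at 32.3 TPM to Atp5b at 853 TPM over all 15 libraries. Levels were most alike within complex III, where they spanned 2.43-fold from Uqcrfs1 (76.0 TPM) to Uqcr10 (184.7 TPM). They spanned 5.89-fold within complex II, 6.80-fold within complex IV and 17.0-fold within ATP synthase. Together the 39 genes made up 0.667% to 0.974% of a library's TPM. The 13 mitochondrially encoded subunits were far higher, at a summed 16.3% to 22.8% of the TPM, and all mt- genes together, RNA genes included, made up 18.8% to 26.0%.

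**Figure D1:**
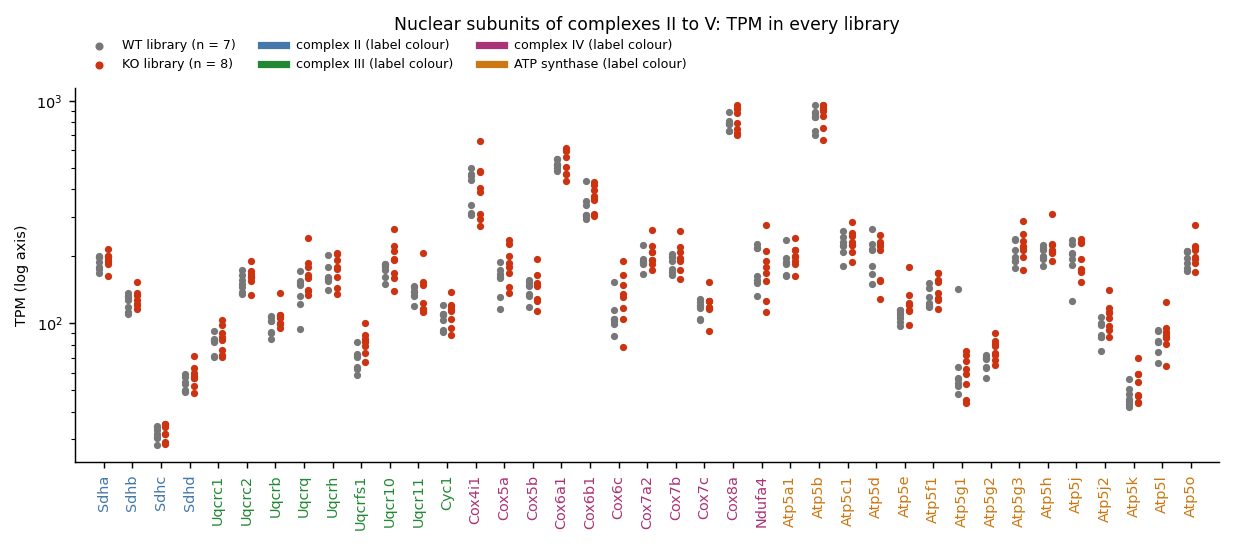
TPM of each of the 39 members (log axis) in the 7 WT libraries (grey) and the 8 KO libraries (red), with gene names coloured by complex. Atp5b and Cox8a stand highest and Sdhc lowest, and for every member the WT and KO points overlap.

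No member passed the test between genotypes. KO was compared with WT by limma on log2(TPM + 1) across all tested genes, and 0 of 39 members had a Benjamini-Hochberg adjusted p under 0.05, where 0.0268% of all tested genes did (5 genes, those of the deleted segment). The adjusted limma p-values of the members ran from 0.336 to 0.994. At an unadjusted limma p under 0.05 there were 4 members, all with a higher KO mean (10.3%), against 11.9% of all tested genes in either direction, 5.68% in the higher and 6.21% in the lower direction. The WT and KO values overlapped for all 39 members. The share of all tested genes with such overlap was not worked out, so this count describes the members only. The log2 fold change was above 0 in 33 members and below 0 in 6, which is 84.6% above 0 against 54.7% of all tested genes. The median over the members was 0.10 and over all tested genes 0.02. For 36 of the 39 members the 95% interval of the log2 fold change lay within 0.5 of 0, and for 9 it lay within 0.25. Which members had an unadjusted p under 0.05 depended on single libraries: there were 2 without WT 5, WT 6, KO 1, KO 2, KO 3 or KO 8, 7 without KO 4 and 8 without KO 6. The share of all genes at that level moved too: it was 7.84% without WT 5, 9.45% without WT 6, 8.46% without KO 1, 10.6% without KO 2, 9.66% without KO 3, 15.1% without KO 8, 10.7% without KO 4 and 14.7% without KO 6.

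**Figure D2:**
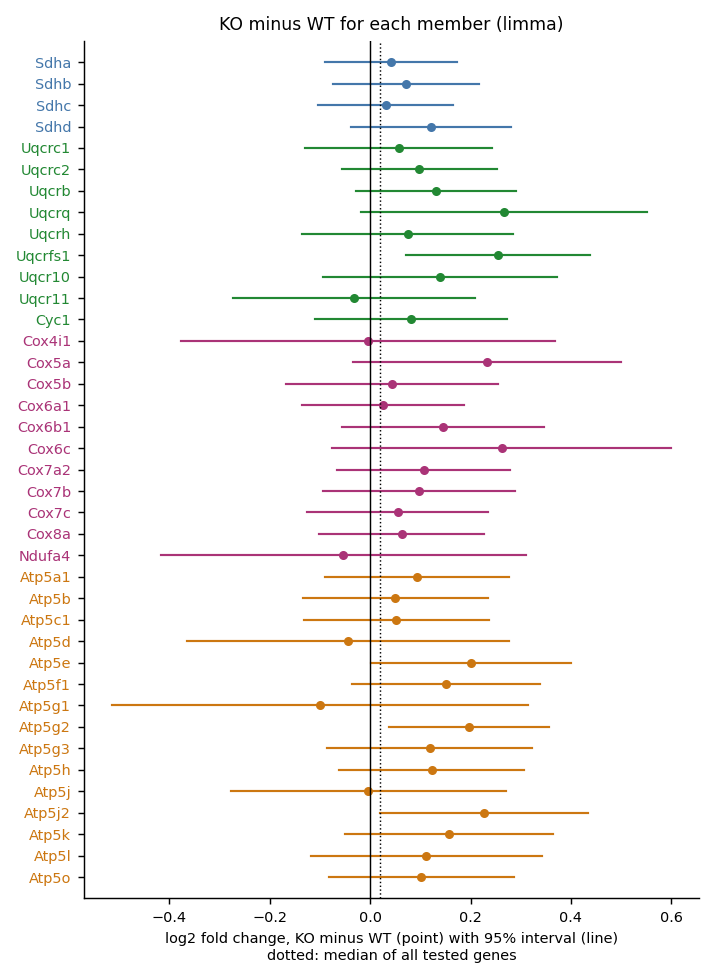
Log2 fold change of KO minus WT (points) with its 95% interval from limma (lines) for each member, coloured by complex, with a solid line at 0 and a dotted line at the median of all tested genes. Most points lie to the right of 0, and all but the intervals of Uqcrfs1, Atp5e, Atp5g2 and Atp5j2 cross 0.

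Complex II had a median log2 fold change of 0.06 over its 4 genes, with 0 of 4 past the threshold. Sdha, the flavoprotein that oxidises succinate, lay between 168 and 202 TPM in WT (median 188) and between 163 and 216 TPM in KO (median 195), a log2 difference of 0.04 ± 0.06 (SE) at a limma adjusted p of 0.781. Sdhb, the iron-sulfur subunit, lay between 109.9 and 137 TPM in WT (median 127) and between 116 and 154 TPM in KO (median 130.1), at 0.07 ± 0.07 (limma adjusted p = 0.659). In both genes the KO range covered most of the WT range, and KO 1 was the highest library. Sdhc and Sdhd are the membrane anchors that hold the ubiquinone site. Sdhc lay between 28.3 and 34.6 TPM in WT (median 31.9) and between 28.7 and 35.3 TPM in KO (median 32.9), at 0.03 ± 0.06 (limma adjusted p = 0.846). Sdhd lay between 49.1 and 59.4 TPM in WT (median 53.4) and between 48.3 and 71.4 TPM in KO (median 57.4), at 0.12 ± 0.08 (limma adjusted p = 0.509). KO 1 and KO 3 were the highest Sdhd libraries, at 71.4 and 63.1 TPM, and KO 6 the lowest. The sign of the Sdha and Sdhc values turned when the trend on transcript length was removed, and that of Sdhc also without KO 1 and KO 8. The length used was the median over all annotated transcripts of a gene, 521 bases for Sdha and 815 for Sdhc. It can differ from the length of the transcripts expressed.

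Complex III had a median log2 fold change of 0.10 over 9 genes, 8 of them above 0. Uqcrfs1, the Rieske iron-sulfur protein (chromosome 13, 30540308 to 30545362, mm10), had the lowest p of all 39 members. It lay between 58.6 and 82.6 TPM in WT (median 70.1) and between 67.0 and 100.4 TPM in KO (median 82.8). The groups overlapped, with 7 of 8 KO libraries above the WT mean and 5 above the highest WT library. The log2 fold change was 0.26 ± 0.09 (SE; limma unadjusted p = 0.00928, adjusted p = 0.336), with a 95% interval of 0.07 to 0.44. Without KO 1 it was 0.21 (limma adjusted p = 0.524).

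Uqcrq and Uqcrb are small subunits of complex III. Uqcrq lay between 93.7 and 173 TPM in WT (median 149) and between 134 and 241 TPM in KO (median 162), the highest log2 fold change of all members at 0.27 ± 0.13 (limma adjusted p = 0.442). Uqcrb lay between 85.3 and 108 TPM in WT (median 102) and between 95.5 and 136 TPM in KO (median 106), at 0.13 ± 0.08 (limma adjusted p = 0.481). KO 1 was the highest library and KO 6 the lowest KO library for both. Uqcr10, listed highest in complex III when the copies of Uqcrb and Uqcr11 are left out, lay between 150.4 and 184.7 TPM in WT (median 179) and between 139 and 265 TPM in KO (median 194), at 0.14 ± 0.11 (limma adjusted p = 0.589). Its KO libraries fell on both sides of the WT range, 5 above and 1 below it. Uqcr11 was the 1 member of complex III with a lower log2 mean in KO, at -0.03 ± 0.11 (limma adjusted p = 0.913), with 119 to 147 TPM in WT (median 139) and 112 to 206 TPM in KO (median 119.9). That sign turned without KO 4, without KO 6, and with the copies of Uqcr11 added. Without KO 1, its highest library, the value of Uqcr11 was -0.12 (limma adjusted p = 0.69). The core proteins Uqcrc1 and Uqcrc2, the hinge protein Uqcrh and the cytochrome subunit Cyc1 had log2 fold changes of 0.06, 0.10, 0.07 and 0.08 (limma adjusted p from 0.571 to 0.786). The mitochondrially encoded partner of complex III, mt-Cytb, had a log2 difference of -0.07 ± 0.06 (adjusted p = 0.627 in limma).

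Complex IV had a median log2 fold change of 0.06 over 11 genes, with 9 above 0 and 2 below. Cox8a, a small membrane subunit and the most abundant member of complex IV, lay between 732 and 895 TPM in WT (median 788) and between 699 and 961 TPM in KO (median 840.4), at 0.06 ± 0.08 (limma adjusted p = 0.733). Cox7c, listed lowest in complex IV when its copies are left out, lay between 103 and 128 TPM in WT (median 119) and between 92.4 and 153 TPM in KO (median 122), at 0.05 ± 0.09 (limma adjusted p = 0.788). In both the KO range reached past the WT range at both ends, and both signs turned without KO 1 and KO 8. The sign of Cox8a also turned after quantile normalization, and that of Cox7c after removal of the length trend.

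Cox5a, a subunit facing the mitochondrial matrix, had the lowest p of complex IV. It lay between 116 and 188 TPM in WT (median 162) and between 137 and 238 TPM in KO (median 183), which gave 0.23 ± 0.13 on the log2 scale (limma adjusted p = 0.460). KO 1 and KO 8 were its highest libraries, at 238 and 227 TPM. Cox6c lay between 87.7 and 153 TPM in WT (median 104) and between 77.8 and 191 TPM in KO (median 134), at 0.26 ± 0.16 (limma adjusted p = 0.496). Cox6b1, on the side of the enzyme that faces cytochrome c, lay between 294 and 438 TPM in WT (median 308) and between 304 and 429.9 TPM in KO (median 369.7), at 0.15 ± 0.09 (limma adjusted p = 0.521). Unlike most members, Cox6b1 was lowest among the KO libraries in KO 1, and its highest library of all was WT 3. Cox4i1, Cox5b, Cox6a1, Cox7a2, Cox7b and Ndufa4, a protein first assigned to complex I and now counted with complex IV, had log2 fold changes of -0.05 (Ndufa4) to 0.11 (Cox7a2), with adjusted limma p from 0.579 to 0.994. The mitochondrially encoded catalytic core of complex IV had log2 fold changes of -0.16 ± 0.07 for mt-Co1 (limma adjusted p = 0.407), -0.08 ± 0.05 for mt-Co2 (limma adjusted p = 0.538) and -0.01 ± 0.06 for mt-Co3 (limma adjusted p = 0.953).

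ATP synthase had a median log2 fold change of 0.11 over 15 genes, with 12 above 0 and 3 below. It held 3 of the 4 members at an unadjusted limma p under 0.05, which is 3 of its 15 genes. Of all tested genes 11.9% were at that level in either direction and 5.68% in the higher direction. In the catalytic head, Atp5b, the catalytic beta subunit, lay between 702 and 954 TPM in WT (median 849) and between 669 and 959.6 TPM in KO (median 909.6), at 0.05 ± 0.09 (limma adjusted p = 0.813), a sign that turned after quantile normalization and without KO 1 and KO 8. Atp5e, the epsilon subunit of the central stalk, lay between 97.5 and 115 TPM in WT (median 109) and between 98.7 and 178 TPM in KO (median 121), at 0.20 ± 0.09 (limma unadjusted p = 0.0491, adjusted p = 0.420). For Atp5e 7 of 8 KO libraries lay above the WT mean and 5 above the highest WT library. Without KO 1, its highest library, the value was 0.13 (limma unadjusted p = 0.0689). With no filter on the mean the limma unadjusted p was 0.0507. Atp5a1, the alpha subunit, and Atp5c1, the gamma subunit, had log2 fold changes of 0.09 and 0.05 (limma adjusted p = 0.649 and 0.805). Atp5d, the delta subunit, had -0.04 ± 0.15 (limma adjusted p = 0.908).

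In the membrane part, Atp5j2, the f subunit, lay between 75.2 and 107 TPM in WT (median 88.3) and between 86.5 and 142 TPM in KO (median 109), at 0.23 ± 0.10 (limma unadjusted p = 0.0337, adjusted p = 0.390). Of its KO libraries 7 of 8 lay above the WT mean and 4 above the highest WT library. Without KO 1 the value of Atp5j2 was 0.17 (limma unadjusted p = 0.0651). Atp5k, the e subunit, which takes part in dimer formation and had the lowest listed level in ATP synthase, lay between 42.2 and 56.0 TPM in WT (median 45.5) and between 43.9 and 69.8 TPM in KO (median 50.8), at 0.16 ± 0.10 (limma adjusted p = 0.509). Atp5l, the g subunit, was at 0.11 ± 0.11 (limma adjusted p = 0.663). In the peripheral stalk, Atp5h, the d subunit, lay between 180.2 and 225 TPM in WT (median 201) and between 189.9 and 310.2 TPM in KO (median 212), at 0.12 ± 0.09 (limma adjusted p = 0.551). The other stalk members, Atp5f1, Atp5o and Atp5j, had log2 fold changes of 0.15, 0.10 and -0.00 (limma adjusted p = 0.487, 0.619 and 0.993). The mitochondrially encoded membrane subunits had log2 fold changes of -0.06 ± 0.07 for mt-Atp6 (limma adjusted p = 0.697) and -0.14 ± 0.11 for mt-Atp8 (limma adjusted p = 0.584).

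The c subunit, which forms the rotating ring, is encoded by the 3 genes Atp5g1, Atp5g2 and Atp5g3, whose mature proteins are known to be the same and which differ in their targeting sequence. Of the TPM listed for these 3 genes, Atp5g3 had 61.0% ± 6.49 in WT (SD, n = 7) and 62.3% ± 2.41 in KO (SD, n = 8). With the copies of Atp5g1 and Atp5g2 added, that share was 36.7% ± 3.53 in WT (SD, n = 7) and 36.8% ± 1.76 in KO (SD, n = 8). It lay between 177 and 238 TPM in WT (median 199) and between 174 and 289 TPM in KO (median 222), at 0.12 ± 0.10 (limma adjusted p = 0.604). Atp5g2 lay between 56.5 and 72.1 TPM in WT (median 68.9) and between 64.7 and 90.6 TPM in KO (median 75.9), at 0.20 ± 0.08 (limma unadjusted p = 0.0186, adjusted p = 0.371). For Atp5g2 7 of 8 KO libraries lay above the WT mean and 5 above the highest WT library. Atp5g1 lay between 48.0 and 142.8 TPM in WT (median 56.2) and between 43.6 and 74.8 TPM in KO (median 60.6), at -0.10 ± 0.20 (limma adjusted p = 0.834). The WT value of 142.8 TPM belonged to WT 6, where Atp5g1 made up 35.2% of the 3 genes, against 13.4% to 19.6% in the other libraries. Without WT 6 the log2 fold change of Atp5g1 was 0.09 (limma adjusted p = 0.769).

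Libraries that were high or low for one member were often so for others. KO 1 was the highest of all 15 libraries for 31 of 39 members and lay above every WT library for 35. KO 6 was the lowest KO library for 27 members and the lowest of all for 15. Among WT, WT 4 was the highest for 23 members, WT 5 the lowest for 18 and WT 1 for 14. Subtracting from each member the mean of the other members in the same library lowered the median within-group SD from 0.180 to 0.102 on the log2 scale, and the SD was smaller for 37 of 39 members. These counts and the SD change were not worked out for all tested genes, so they describe the members only. The members with the most spread left were Atp5g1, Cox4i1, Ndufa4, Cox6c and Atp5d, with SDs of 0.41, 0.35, 0.30, 0.30 and 0.30. Cox4i1, for example, lay between 308 and 498 TPM in WT (median 439) and between 273 and 659 TPM in KO (median 398).

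**Figure D3:**
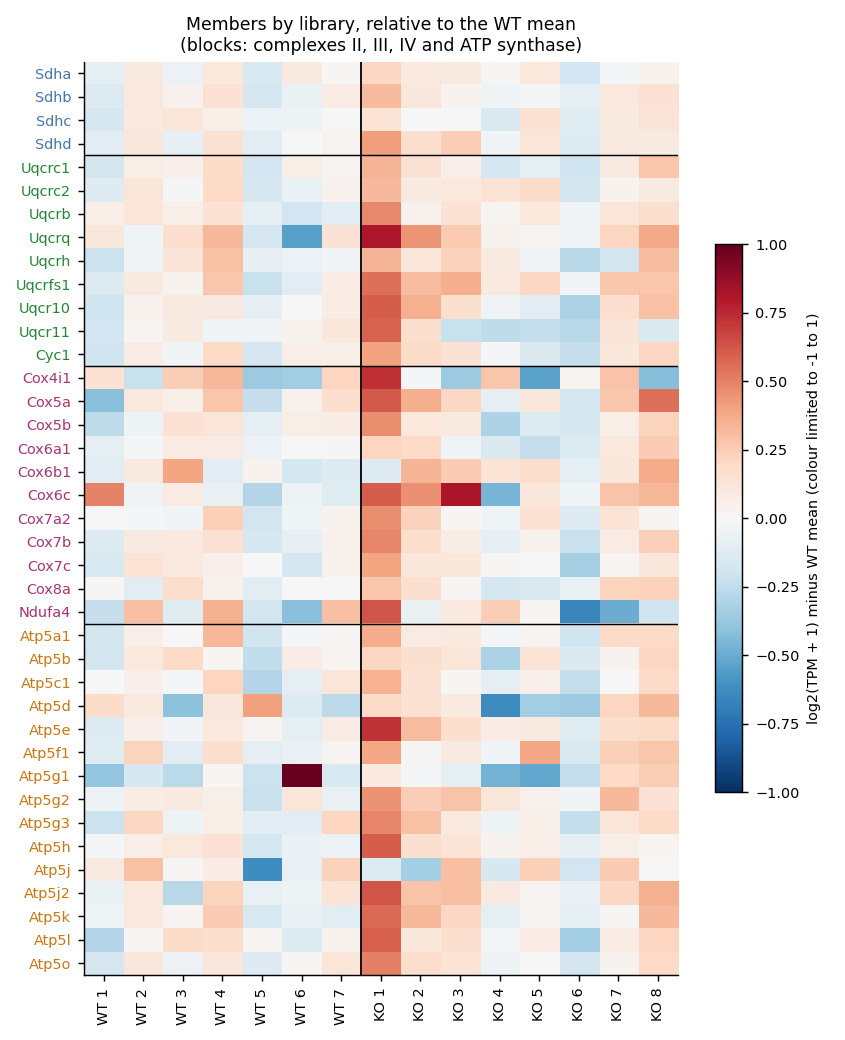
Difference of log2(TPM + 1) from the WT mean for each member (rows, in blocks by complex) and library (columns, WT left of the line), on a colour scale limited to -1 to 1. The column of KO 1 is raised in nearly every row and that of KO 6 lowered in most, while Cox6b1, Cox4i1, Atp5d and Atp5j follow other patterns and Atp5g1 stands apart in WT 6.

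Without KO 1 the median log2 fold change of the 39 members was 0.04, against 0.01 for all genes, with 32 members above 0. Without KO 1 and KO 8 it was 0.02 with 25 members above 0, and the median of all genes was also 0.02. In that comparison the medians of complexes II, III and IV and of ATP synthase were 0.02, 0.04, -0.00 and 0.03. These 2 libraries had the highest members' means of KO (7.63 and 7.40 on the log2 scale). Leaving them out was therefore bound to lower the members' KO mean. Without KO 6, the lowest, the members' median was 0.14 with 37 above 0, against 0.03 for all genes. KO 1 and KO 8 also had the highest summed TPM of 10 oligodendrocyte markers, 987 and 1448 TPM, against 429 to 586 TPM in WT and 293 to 437 TPM in the other KO libraries. The relation of the marker sum to the members' sum over the 15 libraries was not worked out, and the libraries named next are description only. WT 4 had the highest members' sum of WT (8150 TPM) and the lowest marker sum of WT (429 TPM). KO 2 had 388 TPM of markers at a members' sum of 8351 TPM, near the 8437 TPM of KO 8. KO 6 was the lowest of all libraries in both, at 293 and 6667 TPM. The part of oligodendrocytes in the members' values was not tested. In bulk tissue a change in the number of cells of a type and a change in RNA per cell cannot be told apart.

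Other gene groups were set beside the members. For their counts, 11.9% of all tested genes had an unadjusted limma p under 0.05, 5.68% in the higher and 6.21% in the lower direction. A log2 fold change above 0 was found in 54.7% of all tested genes. The nuclear subunits of complex I had a median log2 fold change of 0.10, with 32 of 36 above 0, 0 past the threshold and 4 at an unadjusted limma p under 0.05. Cytosolic ribosomal protein genes had a median of 0.11, with 73 of 80 above 0, 0 past the threshold and 3 at an unadjusted limma p under 0.05. Near-identical copies of the ribosomal genes were not searched for, and their median without KO 1 was not worked out. The 13 mitochondrially encoded subunits had a median of -0.07, with 11 of 13 below 0, 0 past the threshold and 1, mt-Co1, at an unadjusted limma p under 0.05. In KO 1 the mean log2(TPM + 1) of each of complexes II, III and IV, ATP synthase, complex I and the ribosomal genes was the highest of all libraries, and the mt- genes had their lowest share, 18.8%. In KO 8 the members and the ribosomal genes parted, with a members' mean of 7.40 on the log2 scale, second among KO libraries, and a ribosomal mean of 6.08, the lowest of all libraries.

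**Figure D4:**
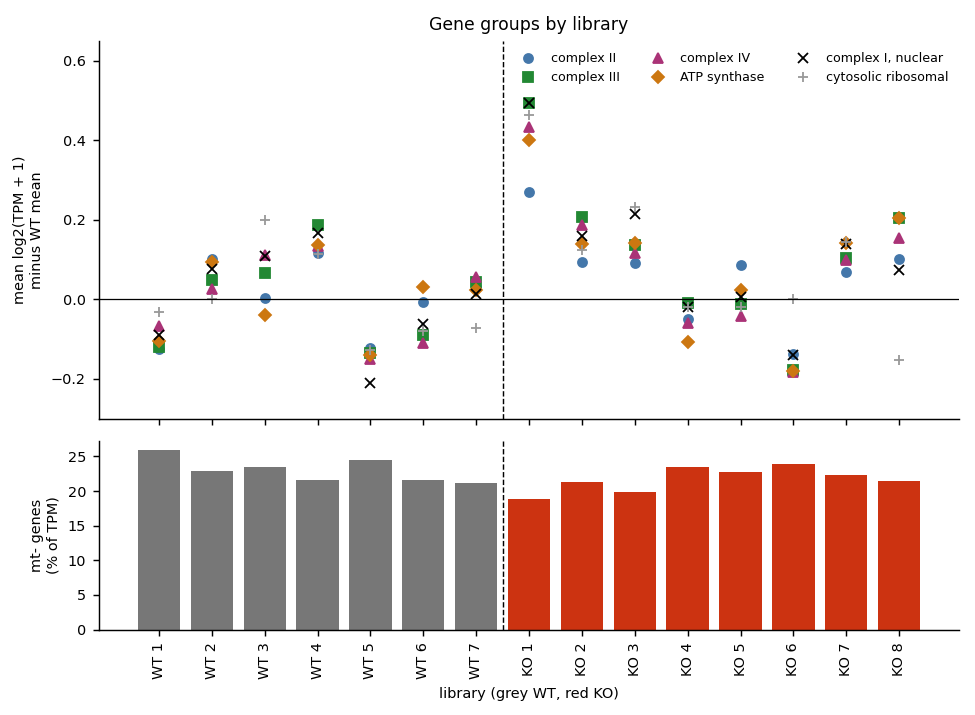
Upper panel: mean log2(TPM + 1) of the members of each complex, of nuclear complex I subunits and of ribosomal protein genes in each library, minus the WT mean. Lower panel: share of TPM from mt- genes in WT (grey) and KO (red) libraries. KO 1 has the highest gene group means and the lowest mt- share (18.8%).

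Excitatory neuron markers, at a summed 4225 to 5229 TPM over 10 genes, were present in all libraries. Of these, 2 were higher and 2 lower at an unadjusted limma p under 0.05. The summed TPM of 10 astrocyte markers was 1763 to 2356 in WT and 1496 to 2006 in KO, with 8 of 8 KO libraries below the WT mean and 7 of 10 markers lower at an unadjusted limma p under 0.05. That of 10 endothelial markers was 160 to 249 in WT and 108 to 199 in KO, again with 8 of 8 KO libraries below the WT mean and 8 of 10 markers lower at that level. That of 7 mural markers was 154 to 201 in WT and 111 to 187 in KO, with 4 of 7 lower at that level. Of all tested genes 5.68% were higher and 6.21% lower at that level. The summed TPM of 10 inhibitory neuron, 8 microglia and 5 blood markers was below the WT mean in 6, 7 and 7 KO libraries. In these lists 3, 2 and 3 markers were lower at that level. Of 10 oligodendrocyte markers 9 had a log2 fold change below 0 and 0 were at that level, where 54.7% of all tested genes were above 0. Of these marker genes 0 passed the adjusted threshold and 0 were at 0 TPM in all libraries, and their part in the members' values was not tested.

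The near-identical copies carried a large share of the TPM. In each of the 14 members with copies, these held more than 5% of the TPM of member and copies together, from 7.38% for Atp5c1 to 72.5% for Atp5l. Atp5l was listed at a mean of 86.0 TPM and its 9 copies at a summed 227 TPM, of which Gm10221 had 90.4. Cox7c was listed at 119.7 TPM and its 3 copies at 259.7 TPM (68.5%). For Atp5g2 the copies Gm10175 and Gm10231 held 63.6%, for Atp5g1 the copy Gm10039 held 64.1%, and for Cox5b the copy Gm11273, annotated as protein coding, held 52.9%. Of the 34 copies, 28 were highest among KO libraries in KO 1, as were 31 of the 39 members. The share of all tested genes highest in KO 1 was not worked out. Whether reads of the members were assigned to the copies cannot be told from TPM values, so the levels of these 14 members are uncertain. With the copies added to their members, 35 of 39 members had a log2 fold change above 0, the median was 0.10 and 0 passed the threshold; Atp5g1 was then at 0.00 and Uqcr11 at 0.01.

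**Figure D5:**
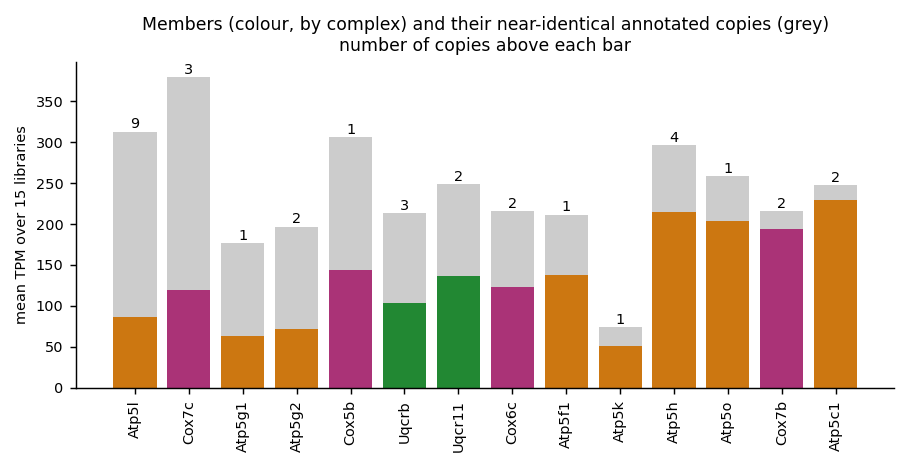
Mean TPM over 15 libraries of the 14 members with near-identical annotated copies (coloured by complex) and the summed mean TPM of those copies (grey, stacked), with the number of copies above each bar. The copies outweigh the member for Atp5l, Cox7c, Atp5g1, Atp5g2, Cox5b and Uqcrb.

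Exons of 12 members overlap another annotated gene, and the strand setting of the counting is not given in the sources used here. Atp5d overlaps Cbarp on the opposite strand, which had 274 ± 51.4 TPM in WT (SD, n = 7) and 252 ± 25.1 TPM in KO (SD, n = 8), above Atp5d itself at 203 ± 39.4 and 198 ± 44.7 TPM. Atp5f1, at a mean of 138 TPM, overlaps Wdr77 and Gm42890 on the opposite strand, which had a summed mean of 38.3 TPM. Cox4i1 overlaps Emc8, Cox6c overlaps Vps13b and Atp5j overlaps Gabpa, a subunit of the factor GABP, each on the opposite strand, with partner means of 21.0, 12.8 and 12.6 TPM. The length of the overlaps was not measured, and the partner values are those of whole genes. The values of these members are therefore uncertain by an unknown contribution of their partners.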

How the data were processed

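Per the submitters' processing notes, reads were handled with Trimmomatic, HISAT2 and StringTie on the mm10 build; the sources used here name no version, parameter, annotation or strand setting. The deposited table gives the authors' TPM values for 54838 Ensembl gene IDs in 15 libraries, each summing to 999789 to 999898. TPM keeps no read depth, so depth is unknown, errors come from the variation among libraries, and a change in a few abundant transcripts moves all other values of a library.

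GENCODE M21 symbols matched 54723 IDs, and IDs sharing a symbol were summed (102 rows merged), leaving 54736 genes. Those whose mean reached 1 TPM were tested as log2(TPM + 1), a scale that understates changes of low genes, with limma 3.58.1 in R 4.3.3 (intensity trend, two-sided, no covariate, all 7 WT and 8 KO libraries), with Benjamini-Hochberg adjustment over all 18656 genes and a threshold of 0.05. The fit was tested on simulated data. Copies were found by aligning transcripts with blastn 2.17.0 (95% identity, 150 bases). Summed levels, medians and motif counts are descriptions.

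The members, gene lists and tests were chosen with earlier results of these data known. Named members were those of highest and lowest mean and the 3 of lowest p in each complex (all of complex II), the c-subunit genes and members with a library standing apart; in the related lists, the gene of lowest p and the mitochondrially encoded partners. The others were named to account for each member or, with their overlap partners, after their values were seen. Alternatives were pseudocounts, filters, scalings, variance prior, array weights, a replicate block, libraries left out and a length correction; summing copies was added after seeing the data.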

Additional observations from a re-analysis of the deposited data

Results flagged for a closer look

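Each member was examined in each group for a library whose highest or lowest value was separated from the nearest other by more than Dixon's 95% critical share of the range for groups of that size. Of 78 groups 7 were marked. Chance marks about 1 in 20 of independent groups, but the members rose and fell together within libraries. The 7 are therefore not separate events, and their number cannot be weighed against that rate. In KO 1, 4 members stood apart. Uqcrb was at 136.5 TPM with the next KO library at 109.3, Uqcr11 at 205.9 with the next at 152.5, Atp5e at 178.1 with the next at 133.3, and Atp5h at 310.2 with the next at 227.6 TPM. In WT, Cox6b1 was at 437.9 TPM in WT 3 with the next library at 354.1, and Cox6c at 152.7 TPM in WT 1 with the next at 114.5. Atp5g1 was at 142.8 TPM in WT 6 with the next library at 63.7. Its copy Gm10039 was at 120.9 TPM in WT 6, within the range of 96.1 to 121.5 TPM of the WT libraries, and the sum of both was 263.7 TPM in WT 6 and 144.5 to 179.1 TPM in the other WT libraries.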

How the results depend on the processing

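In all 28 alternatives 0 of 39 members passed the adjusted limma threshold, the lowest adjusted p being 0.206 (Uqcrfs1 without WT 4), and 25 to 37 members had a log2 fold change above 0. The median over the members ran from 0.0187 (without KO 1 and KO 8) to 0.138 (without KO 6). After removal of the length trend 28 members were above 0, with a median of 0.047 against 0.00795 for all genes. After quantile normalization 30 members were above 0, with a median of 0.0622 against 0.0136. With mt- genes removed and the rest rescaled, 33 members were above 0, with a median of 0.0736 against -0.00167. Leaving out 1 library at a time gave 2 to 8 members at an unadjusted limma p under 0.05, 5 to 6 genes past the threshold, and medians of 0.0421 to 0.138. Of all tested genes 7.84% to 15.1% were at that level in these fits. Without KO 1 and KO 8, 2 members and 10.8% of all tested genes were at that level. Of 616 values of the 22 named members under alternatives, 14 changed sign and 0 became significant. These were Cox8a (-0.011) and Atp5b (-0.0039) after quantile normalization; Sdhc (-0.0041), Cox8a (-0.0013), Cox7c (-0.012) and Atp5b (-0.0013) without KO 1 and KO 8; Sdha (-0.016), Sdhc (-0.0031) and Cox7c (-0.0056) after removal of the length trend; Atp5g1 (0.0042) and Uqcr11 (0.01) with copies summed; Atp5g1 (0.094) without WT 6; and Uqcr11 without KO 4 (0.00029) and without KO 6 (0.0027). Over the fits that left out 1 library, Atp5g1 ran from -0.16 to 0.094 and Uqcr11 from -0.12 to 0.0027. The cause was not tested. With the replicate number as a block, 8 genes passed, and 2 members and 14.9% of all tested genes were at an unadjusted limma p under 0.05. As there is no WT library numbered 8, KO 8 added nothing to the fold changes of that fit. The members' median was 0.0788 both with the block and without KO 8. Same-numbered libraries deviated together with correlations of only -0.043 to 0.122 and in no case best with their own number, so the numbers were not taken as pairs.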

Other observations

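Genes that assemble, regulate or stand in for the subunits gave 0 calls past the adjusted limma threshold, with 2 complex IV assembly factors, 2 of complexes II and III, 1 regulator and 1 isoform or further subunit at an unadjusted limma p under 0.05. Of all tested genes 11.9% were at that level in either direction, and 54.7% had a log2 fold change above 0. Of 21 complex IV assembly factors, 17 had a log2 fold change above 0 (median 0.12), and Cox15, a haem A synthesis enzyme, had the lowest p at 0.25 ± 0.09 (SE; limma adjusted p = 0.336). Of 10 complex II and III assembly factors 8 were above 0 (median 0.13), with Sdhaf4 at 0.29 ± 0.11 (limma adjusted p = 0.377). Of 12 regulators of mitochondrial genes, 8 were below 0 (median -0.06), and the coactivator gene Ppargc1a lay between 14.6 and 21.1 TPM in WT (median 17.2) and between 11.1 and 21.3 TPM in KO (median 14.6), at -0.27 ± 0.12 (limma adjusted p = 0.408). All 4 assembly and inhibitor genes of ATP synthase were above 0 (median 0.06), the inhibitor gene Atpif1 among them at 0.12 ± 0.11 (limma adjusted p = 0.639). The 3 carriers that work with ATP synthase had a median of -0.00, with the ADP/ATP carrier gene Slc25a4 at 0.08 ± 0.07 (limma adjusted p = 0.621).

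Tissue-restricted isoforms were low beside the members. Cox6a2 was at 7.84 ± 0.836 TPM in WT (SD, n = 7) and 7.38 ± 1.76 TPM in KO (SD, n = 8), and Cox4i2 at 2.88 ± 0.725 and 2.71 ± 0.773 TPM. Cox8c and Cyct were listed at 0 in all libraries. Of the 13 isoforms and further subunits 9 were tested, 6 above 0 and 0 past the threshold, with Atp5s at the lowest p (0.20 ± 0.08; limma unadjusted p = 0.0279, adjusted p = 0.388).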
